A study of Mus musculus with 20 samples.

Results

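The opening 2 h of a heat time course in HSF1 +/+ mouse fibroblasts (called WT here) were described from 6 of the 20 arrays of the series: 3 of cells at 0 h and 1 each of cells heated for 0.5, 1 and 2 h. They were chosen by genotype and time from the sample titles. Fibroblasts are connective tissue cells, and the samples are annotated as a cell line. The other arrays held later WT times and HSF1 -/- fibroblasts (called KO here), of which the 6 at 0, 0.5, 1 and 2 h serve below as a comparison. Each two-colour array carried the sample in Cy5 and, in Cy3, a pool of mRNA from mouse fibroblasts, some heated for 1 h and some not. A value is a log ratio of sample over pool, read here as log2 although the base is not stated, and below it is given relative to the mean of the WT 0 h arrays. The labels give no temperature, do not say whether cells recovered before harvest, and leave the origin of the repeated 0 h arrays (1 culture or several) unstated. P-values therefore measure the spread between arrays, and each heated time has 1 array only.

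Cells that are heated accumulate misfolded proteins. The transcription factor HSF1 is then released from chaperones, forms trimers and binds heat shock elements, which are inverted repeats of the bases GAA, in front of chaperone genes. The products belong to families that work together: HSP70 proteins fold clients in an ATP cycle, J-domain proteins (HSP40) deliver clients and start that cycle, HSP110 proteins exchange the nucleotide of HSP70, HSP90 and its co-chaperones mature signalling proteins, and small heat shock proteins hold unfolded clients. Immediate early genes, which many stresses raise within minutes, use other factors.

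The 6 arrays held 39037 to 42115 values each and correlated pairwise with r of 0.705 to 0.853 across probes. The spread of values within an array, as the median absolute deviation, was 1.08 to 1.12 at 0 h, 1.18 at 0.5 h, 0.93 at 1 h and 0.93 at 2 h, so the 1 and 2 h arrays were narrower than the rest. Of 10625 genes measured, 5182 had 1 probe. The array carried 0 probes for Hsf1 and 0 for Hsf2, so the genotype label could not be checked on the gene itself. Of 9 fibroblast markers measured, 0 passed the test at 1 and 2 h. Ratios to a fibroblast pool show change and not presence, so the cell type itself could not be checked.

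Heat for 1 or 2 h raised a small set of chaperone transcripts in WT cells. With the 1 and 2 h arrays averaged and set against 0 h, 10 of 10582 genes passed an adjusted p of 0.05 (limma, Benjamini-Hochberg over all genes), which is 0.0945%. Of these, 8 were higher (0.0756%) and 2 lower (0.0189%), beside 40 and 2 without centring and 18 and 7 with quantile normalization, and 1285 genes had an unadjusted p under 0.05. The 8 were the HSP70 genes Hspa1a and Hspa1b, the J-domain gene Dnajb1, the HSP110 gene Hsph1, and Chrd, Ccdc117, Il1r1 and Slc22a12. The lower genes were Fcgr1 and Cfap126. The number called depended on single arrays, and was 20 (10 higher, 10 lower) without the 0 h array of replicate 1, 22 (17 and 5) without replicate 2 and 35 (24 and 11) without the 1 h array. In a model of the WT arrays alone 2 of the 10, Hspa1a and Cfap126, still passed.

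Promoter sequences are shown as examples of how GAA repeats lie at chaperone genes: the inducible HSP70 pair, which had the largest rises, Hsph1, which also passed, and Chordc1, an HSP90 co-chaperone described below that missed the threshold. They are from RefSeq (GRCm38.p6), 5′ to 3′ on the strand of the gene, from 250 bases before the annotated start onward. Capitals mark GAANNTTC or TTCNNGAA, searched over both strands (each motif is its own reverse complement) with overlapping matches joined. The 8-letter search and the choice of these genes were made after the values were seen.
Hspa1a, chr17:34972127-34972406, minus strand: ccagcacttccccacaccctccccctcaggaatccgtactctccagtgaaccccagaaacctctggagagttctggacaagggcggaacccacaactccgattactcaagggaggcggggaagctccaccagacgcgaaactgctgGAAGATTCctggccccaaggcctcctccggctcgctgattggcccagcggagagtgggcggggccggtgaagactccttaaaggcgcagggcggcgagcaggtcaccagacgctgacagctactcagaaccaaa
Hspa1b, chr17:34959209-34959488, minus strand: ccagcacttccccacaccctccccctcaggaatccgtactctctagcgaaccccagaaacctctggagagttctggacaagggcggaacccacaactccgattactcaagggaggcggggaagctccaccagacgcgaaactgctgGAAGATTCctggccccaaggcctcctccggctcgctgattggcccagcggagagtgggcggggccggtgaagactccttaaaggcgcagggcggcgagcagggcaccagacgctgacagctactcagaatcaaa
Hsph1, chr5:149636286-149636565, minus strand, the downstream of its 2 annotated starts: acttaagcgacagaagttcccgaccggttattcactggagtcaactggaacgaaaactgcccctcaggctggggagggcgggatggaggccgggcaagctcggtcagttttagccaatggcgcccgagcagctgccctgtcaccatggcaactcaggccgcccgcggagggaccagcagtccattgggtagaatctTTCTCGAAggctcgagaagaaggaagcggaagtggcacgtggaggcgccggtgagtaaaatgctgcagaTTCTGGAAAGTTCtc
Chordc1, chr9:18292017-18292296, plus strand: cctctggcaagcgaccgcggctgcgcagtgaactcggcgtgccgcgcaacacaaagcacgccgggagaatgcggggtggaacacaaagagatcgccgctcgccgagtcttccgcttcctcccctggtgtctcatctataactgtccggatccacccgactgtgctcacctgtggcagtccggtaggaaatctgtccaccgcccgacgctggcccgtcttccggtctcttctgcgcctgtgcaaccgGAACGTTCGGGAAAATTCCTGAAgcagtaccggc

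Hspa1a and Hspa1b share 296 of 300 promoter bases (98.7%), and each window has 1 match, which begins 104 bases before the start. Hsph1 has 3 matches, and overlapping ones just after the start form a 13-letter run, in which the 8-letter pattern is extended by 1 more unit (NNGAA or NNTTC). Chordc1 has 5 matches in the 300-base window, of which 4 fall in the printed stretch as 1 unbroken run. Of the 8 genes that rose at 1 and 2 h, 7 had a RefSeq promoter, and 4 of them (57.1%) held the 8-letter pattern in a window from 250 bases before to 50 after the start. These 4 include Il1r1, with a match in 1 of its windows, and the near-identical HSP70 pair. Dnajb1, Chrd and Slc22a12 had no match. Of the 2 genes that fell, 1 (50%) held the pattern too (Fcgr1). Over all 8572 tested genes with a promoter the share was 14.1%, and over all 32851 RefSeq windows of this length it was 15.1%. The 13-letter pattern was in 0.525% of tested genes with a promoter and in 0.603% of all windows. A match is a stretch of letters, and binding was not measured here.

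Hspa1a encodes the stress-inducible HSP70. Its values were 0.16, -0.28 and 0.12 in the 0 h arrays, 0.58 at 0.5 h, 4.55 at 1 h and 5.80 at 2 h. The 1 and 2 h arrays stood far above the 0 h arrays, and the 0.5 h array lay above them by much less. The mean rise over 1 and 2 h was 5.17 ± 0.34 (SE, limma; adjusted p = 8.1e-06), which is 36.1-fold. At 0.5 h the difference of 0.58 ± 0.43 did not pass (adjusted p = 0.698), while the step from 0.5 h to 1 and 2 h did, at 4.59 ± 0.46 (adjusted p = 0.000132).

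Hspa1b, the neighbouring near-identical copy, read 0.01 and -0.01 in the 0 h arrays that measured it, 0.69 at 0.5 h, 4.03 at 1 h and 4.98 at 2 h. It rose by 4.50 ± 0.39 over 1 and 2 h (limma, adjusted p = 0.000161; 22.7-fold), and by 3.82 ± 0.47 from 0.5 h (adjusted p = 0.00138). Each copy had 1 probe, and RNA of either can bind both, so the pair is not independent evidence. Hspa1b did not pass when probes with too few values were kept as well (2.75, adjusted p = 0.108).

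Dnajb1, the main cytosolic J-domain partner of inducible HSP70, read 0.06, -0.22 and 0.16 at 0 h, 1.16 at 0.5 h, 2.06 at 1 h and 2.14 at 2 h. All heated arrays lay above all 0 h arrays, and the 1 and 2 h values were close to each other. The rise over 1 and 2 h was 2.10 ± 0.25 (limma, adjusted p = 0.00297; 4.28-fold), and its 3 probes gave 2.59, 1.88 and 1.94. Its 0.5 h value was the highest of the 4 chaperone genes that rose, but at 1.16 ± 0.32 it missed the threshold (limma, adjusted p = 0.108), as did its step from 0.5 h to 1 and 2 h (0.94 ± 0.34, adjusted p = 0.235). At 0.5 h its probes were apart, from 0.44 to 2.18.

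Hsph1, which encodes an HSP110 nucleotide exchange factor of HSP70, read -0.21, -0.05 and 0.26 at 0 h, -0.51 at 0.5 h, 1.30 at 1 h and 1.94 at 2 h. The 0.5 h array was below all 0 h arrays, although that difference did not pass (limma, adjusted p = 0.502) and its probes ran from -1.025 to 0.19. The 1 and 2 h arrays were above all 0 h arrays. The rise over 1 and 2 h was 1.62 ± 0.20 (limma, adjusted p = 0.00361; 3.08-fold), with 1.34 to 1.93 across its 4 probes. From 0.5 h it rose by 2.13 ± 0.27 (adjusted p = 0.00138). Without the 2 h array the difference was 1.30 and did not pass (adjusted p = 0.128).

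**Figure D1:**
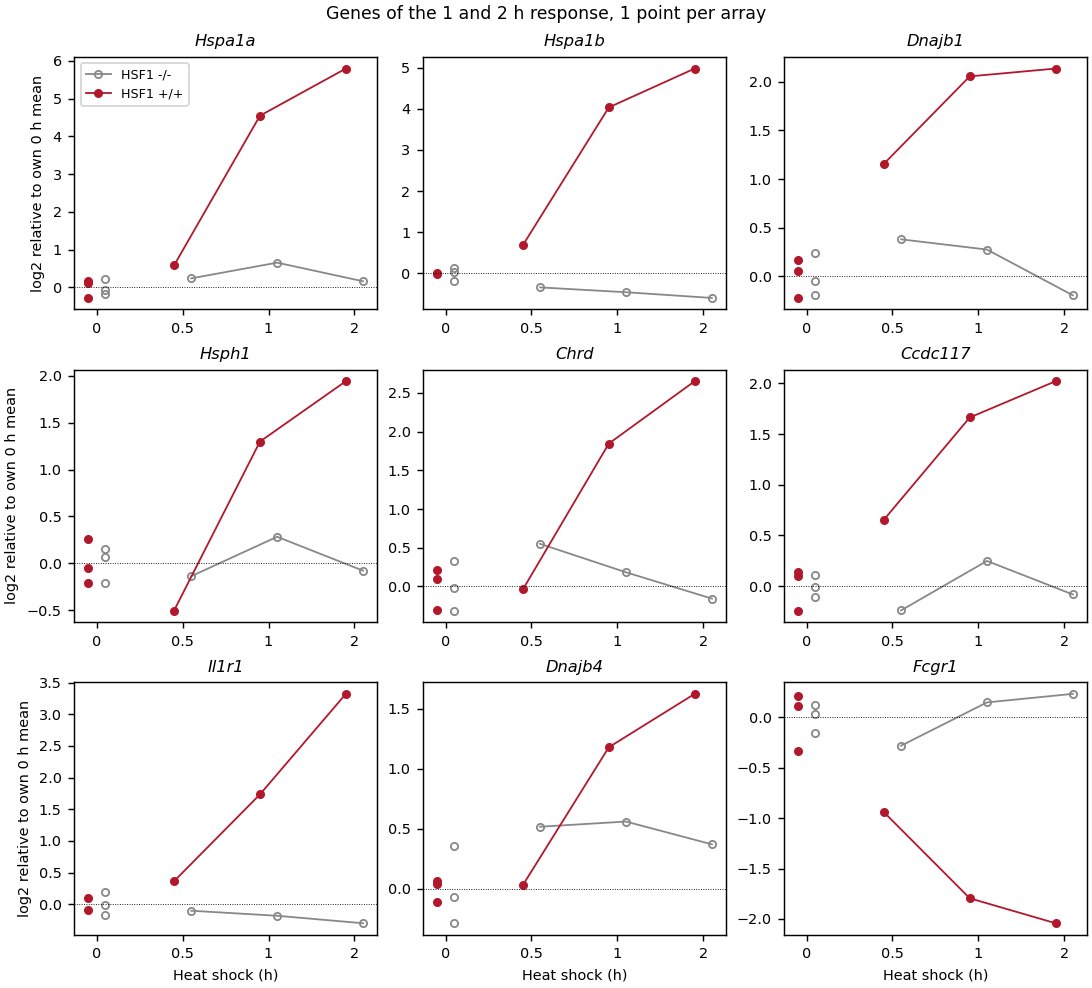
Log2 ratio of 9 genes (y axis, relative to the 0 h mean of the same genotype) in WT (red) and KO (grey) arrays at 0, 0.5, 1 and 2 h of heat (x axis, hours, evenly spaced and not to scale), 1 point per array with lines joining the heated arrays. Hspa1a reaches 4.55 at 1 h and 5.80 at 2 h in WT and stays at or under 0.66 in heated KO cells.

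The plot of genes by time sets these courses side by side. Hsph1 was below the 0 h arrays at 0.5 h and above them at 1 h, whereas Dnajb1 was 1.16 at 0.5 h and 2.14 at 2 h. The order at 2 h was Hspa1a, Hspa1b, Dnajb1, Hsph1, which orders differences and not levels.

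The remaining HSP70 and HSP110 genes gave smaller values. In the whole family of 10 measured genes, the 3 that rose were Hspa1a, Hspa1b and Hsph1, described above. Of the 9 family members with a value on all 5 arrays, 5 (55.6%) had both the 1 and the 2 h array above all 0 h arrays. The share over all genes was 15.1%. The family median was 0.33 at 0.5 h, 0.73 at 1 h and 1.20 at 2 h. Hspa8, the constitutive HSP70, was 0.47 at 1 h and 0.84 at 2 h over 7 probes, with a mean of 0.65 that did not pass (limma, adjusted p = 0.337). Hspa2, best known from the testis, was 0.92 and 1.57 (adjusted p = 0.27). Hspa4l, another HSP110 gene, differed by 1.39 but its 0 h arrays ran from -1.43 to 1.40 (adjusted p = 0.385). Hspa4, Hspa13 and Hspa14 gave -0.06, -0.35 and -0.09.

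Of 22 J-domain and nucleotide-exchange co-chaperone genes measured, 1 rose (Dnajb1), and the median was 0.00 at 0.5 h, 0.09 at 1 h and 0.22 at 2 h. Dnajb4, a close relative of Dnajb1, read -0.11, 0.07 and 0.04 at 0 h, 0.03 at 0.5 h, 1.18 at 1 h and 1.62 at 2 h. Both later arrays lay above all others, and its 3 probes gave 1.35 to 1.49, but the mean of 1.40 ± 0.25 missed the threshold (limma, adjusted p = 0.054). Dnaja1, an abundant J-domain partner of Hspa8, was 0.57 at 1 h and 1.25 at 2 h over 6 probes (mean 0.91, adjusted p = 0.118).

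Of 13 genes of HSP90 and its co-chaperones, 0 passed. Chordc1, a co-chaperone with the printed run of repeats at its start, was 0.04 at 0.5 h, 1.46 at 1 h and 1.55 at 2 h (limma on their mean, adjusted p = 0.159). Hsp90aa1, the inducible cytosolic HSP90, was 0.51 and 1.04 over 11 probes (adjusted p = 0.16). Ttc4 and Ppp5c both gave -0.54. Among 7 small heat shock proteins 0 passed. Hspb1 was 1.51 at 1 h and 1.82 at 2 h, but its 0 h arrays of 0.34, 0.52 and -0.86 were widely spread (adjusted p = 0.162). Of 14 mitochondrial chaperones and proteases 0 passed. The protease Lonp1 differed by 1.21 (adjusted p = 0.256) and the chaperonin genes Hspd1 and Hspe1 by 0.42 and 0.43.

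The 4 other genes that were higher at 1 and 2 h each rested on 1 probe. Chrd encodes chordin, a secreted antagonist of bone morphogenetic proteins. It read 0.09, -0.30 and 0.21 at 0 h, -0.04 at 0.5 h, 1.85 at 1 h and 2.65 at 2 h, a rise of 2.25 ± 0.31 (limma, adjusted p = 0.00721; 4.75-fold). The 0.5 h array lay among the 0 h arrays, and the step from 0.5 h passed too (2.29 ± 0.41, adjusted p = 0.0113).

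Il1r1, the signalling receptor for interleukin 1, read -0.09 and 0.09 at 0 h, 0.36 at 0.5 h, 1.73 at 1 h and 3.32 at 2 h. The rise over 1 and 2 h was 2.53 ± 0.38 (limma, adjusted p = 0.0202; 5.77-fold), and that from 0.5 h was 2.16 ± 0.46 (adjusted p = 0.0374). The later WT arrays read 1.04 at 3 h and 0.35 at 8 h, so the 2 h array was the peak of those. Ccdc117, a coiled-coil protein of little known function, read -0.24, 0.14 and 0.10 at 0 h, 0.65 at 0.5 h, 1.66 at 1 h and 2.02 at 2 h. It rose by 1.84 ± 0.26 (adjusted p = 0.00814; 3.59-fold). Without the 2 h array Chrd (1.85, adjusted p = 0.161), Il1r1 (1.73, 0.407) and Ccdc117 (1.66, 0.107) did not pass.

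For Slc22a12, a urate transporter of the kidney, and Cfap126, a protein of cilia, the call came from the 2 h array alone. Slc22a12 was 0.03 at 1 h and 4.53 at 2 h, and without the 2 h array its adjusted p was 0.998. Cfap126 was -0.84 at 1 h and -6.17 at 2 h, and without the 2 h array its adjusted p was 0.831. Fcgr1, the high-affinity Fc receptor of macrophages, read 0.11, 0.22 and -0.33 at 0 h, -0.94 at 0.5 h, -1.80 at 1 h and -2.04 at 2 h. All heated arrays lay below all 0 h arrays, and the mean fell by 1.92 on the log2 scale over 1 and 2 h (SE 0.24, limma, adjusted p = 0.00361). Its 2 probes disagreed, at -3.54 and -0.30, and with 1 probe per gene it did not pass (adjusted p = 0.714). Of 8 macrophage markers measured Fcgr1 was the 1 that changed, and Cd68 was -0.74 without passing.

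**Figure D2:**
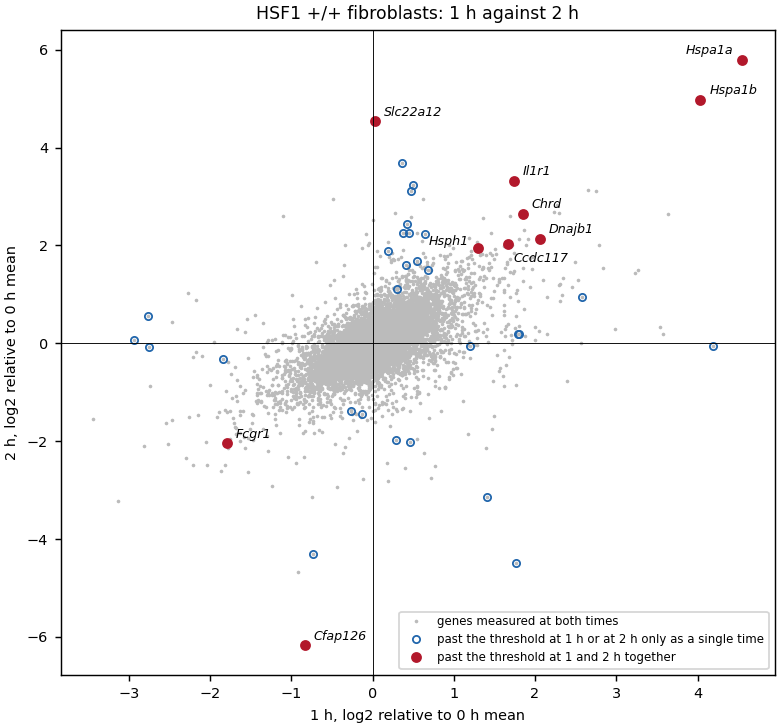
Log2 ratio at 1 h (x axis) against that at 2 h (y axis) in WT cells, both relative to the mean of the same 0 h arrays, 1 point per gene, with genes past the threshold over both times as red points and those past it at 1 time only as blue rings. The HSP70 pair sits at the upper right; Slc22a12 goes from 0.03 at 1 h to 4.53 at 2 h, and Cfap126 from -0.84 to -6.17.

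The plot of 1 h against 2 h shows how few genes were high at both times. Both axes share the 0 h arrays, so the slope of the cloud carries no result. Genes at least 2-fold higher at both times, with both arrays above all 0 h arrays, numbered 67 of 10071 (0.665%), and 48 (0.477%) were lower by the same rule. Of the 67, 5 passed the test, 19 had more than 1 probe, and 18 had 0 h arrays that differed among themselves by more than 2 on the log2 scale. Of the 48, 1 passed. Values among the 67, picked after they were seen and none past the threshold, include 1.29 at 1 h and 2.07 at 2 h for the Notch ligand gene Jag1 (probes 2.98 and 0.38), 1.25 and 1.43 for the potassium channel gene Kcnn4, and 1.30 and 1.58 for the small GTPase gene Mras. Of the 55 genes of the 67 with a promoter, 9 (16.4%) held the 8-letter GAA pattern and 2 (3.64%) the 13-letter one, beside the 14.1% and 0.525% of all tested genes given above.

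Taken alone, the 0.5 h array gave more calls than the 1 h or the 2 h array. At 0.5 h, 157 of 10350 genes passed against 0 h (1.52%), 65 higher and 92 lower, and 0 of these were cytosolic chaperones. Of the 157, 61.8% had 1 probe, against 47.5% of the genes tested. Of the 157, 34 had the 1 and 2 h arrays on the same side of all 0 h arrays. Over all genes, 15.1% had both of these arrays above all 0 h arrays and 15.8% had both below. The 34 of 157 are no smaller a share than either of these. Counted separately over the 157, 8 were at least 2-fold from the 0 h mean in the same direction at both times. The share over all genes was counted only by a stricter rule, with both arrays also outside all 0 h arrays. By that rule it was 0.665% higher and 0.477% lower, so 8 of 157 is not a small share. The single array sets these values, and the number fell to 56 of the 10350 genes when arrays were quantile-normalized (32 higher, 24 lower). In a separate test of only the 5433 genes with at least 2 probes it was 56. Of the 157 calls in the main test 97 had 1 probe, so those could not be among the genes of that separate test.

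Btbd18, the largest rise at 0.5 h, was 6.88 there (limma, adjusted p = 0.0024), 0.65 at 1 h and 0.57 at 2 h. Plekhh2 was -7.33 at 0.5 h, -0.16 at 1 h and -0.31 at 2 h. Hey1, a Notch-responsive repressor, was -5.36, 0.84 and 0.83. Each of these left the 0 h range by far at 0.5 h and lay within 1 log2 unit of the 0 h mean at 1 and 2 h. Among the 10 largest rises the 0.5 h values ran from 3.95 to 6.88 and those at 1 h from -0.82 to 1.65. Among the 10 largest falls the 0.5 h values ran from -7.47 to -4.61 and those at 2 h from -2.49 to 1.13. Of these 20 genes 18 had 1 probe. Ptbp1, a splicing regulator with 2, gave 7.68 on one and 1.22 on the other at 0.5 h, and did not pass without the 0 h array of replicate 2 or of replicate 3 (adjusted p = 0.185 and 0.157). Ifna11 was -7.47, but its 0 h arrays were 2.76, -1.28 and -1.48.

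**Figure D3:**
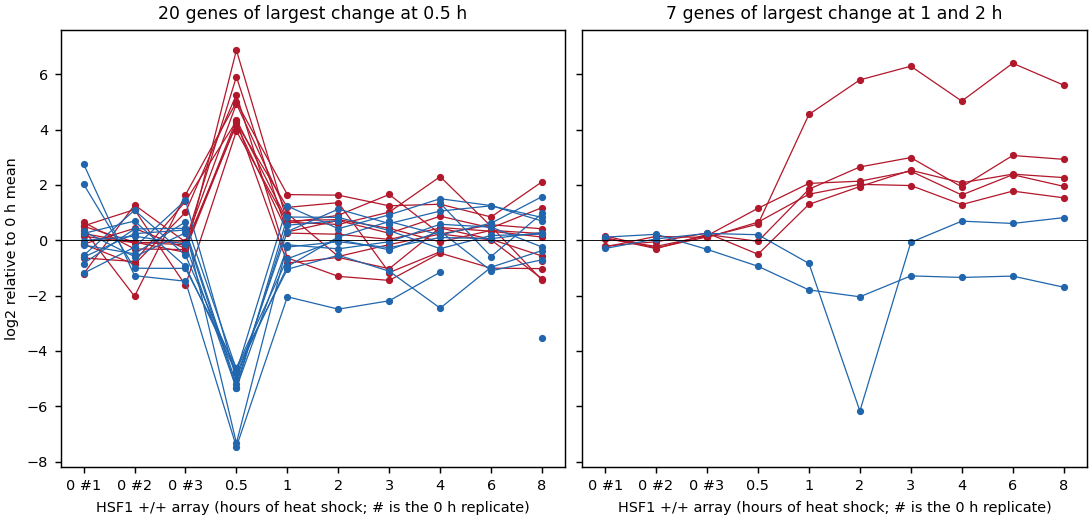
Log2 ratio relative to the WT 0 h mean (y axis) in all 10 WT arrays (x axis, hours of heat, not to scale) for the 20 genes of largest change at 0.5 h (left) and 7 genes that passed over 1 and 2 h and were measured on all 6 arrays with 1 and 2 h on the same side (right), rises in red and falls in blue, 1 line per gene. The left-hand rises of 3.95 to 6.88 at 0.5 h lie between -0.82 and 1.65 at 1 h, while right-hand Hspa1a is 4.55 at 1 h and 5.80 at 2 h.

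The plot of the 0.5 h genes shows values nearer the 0 h mean at 1 and 2 h in both directions, with exceptions. These genes were picked for the largest changes on the single 0.5 h array. The plot therefore cannot tell a return over time from the effect of that choice. At 1 and 2 h Mrc2 (1.19 and 1.36) and Ifna11 (-2.04 and -2.49) were still at least 2-fold from the 0 h mean and outside all 0 h arrays. Tm9sf1 averaged 1.64 over 1 and 2 h but did not lie above all 0 h arrays. Of the genes of 1 and 2 h in the right-hand panel, Cfap126 alone lay at the 0 h level at 3 h. Setting the 1 and 2 h arrays against the 0.5 h array gave 166 calls of 10307 genes (1.61%), 88 higher and 78 lower at the later times. Without centring the split was 117 to 49, and at equal spread it was 19 to 16. This comparison uses the same lone 0.5 h array as the 157 calls against 0 h, so it is not separate evidence. On that array 113 values lay more than 5 log2 units from its median, against at most 91 on a WT 0 h array. Of the chaperone genes, Hspa1a, Hspa1b and Hsph1 were among the higher ones (values above), and Dnajb4 missed (1.37 ± 0.33, limma, adjusted p = 0.0615).

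At 1 h alone, 13 of 10602 genes passed (0.123%), 8 higher and 5 lower. With quantile normalization the split was 8 to 10, and without centring it was 10 to 2. Hspa1a (4.55, limma, adjusted p = 0.000746), Hspa1b (4.03, 0.00316) and Dnajb1 (2.06, 0.0205) were among the 8. The other 5 were smaller at 2 h: Tgfbi, a secreted matrix protein, was 2.57 at 1 h and 0.94 at 2 h, Vgll4 1.80 and 0.18, 2610027K06Rik 1.80 and 0.18, 1700013G24Rik 4.19 and -0.06, and the clock-linked factor Tef 1.19 and -0.05. Among the 5 lower genes, the TGF-beta receptor gene Tgfbr1 was -2.77 at 1 h and 0.56 at 2 h, Amn1 -2.94 and 0.07 (with -6.52 on one probe and 0.65 on the other at 1 h), and Clec16a -2.75 and -0.08. Plxnb1, a semaphorin receptor, was -1.84 and -0.32, and in KO cells it was -1.78 at 1 h. Its probes at 1 h gave -3.99 and 0.30, and for Tef 1 of 4 probes gave 4.14 and the others -0.11 to 0.46, so with 1 probe per gene Amn1, Plxnb1 and Tef changed sign (0.65, 0.30 and -0.11). Fcgr1 was -1.80 and -2.04. Dnajb1 at 1 h did not pass without the 0 h array of replicate 1 (adjusted p = 0.141) or 2 (0.106), nor did Tgfbi without replicate 1 or 3. Clec16a and 2610027K06Rik did not pass without replicate 1. With single 0 h arrays of WT or KO left out, Plxnb1 passed in 2 of 6 fits, Fcgr1 in 1 and Tef in 0. Of the 13 calls, 4 had the other heated arrays (0.5 and 2 h) on the same side of all 0 h arrays. The share over all genes for that pair of arrays was not counted.

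At 2 h alone, 29 of 10605 genes passed (0.273%), 20 higher and 9 lower. Without centring the split was 43 to 6. The 20 included all 4 chaperone genes above (Hspa1a at 5.80, limma, adjusted p = 1.87e-05; Hsph1 at 1.94, 0.00562), Il1r1, Chrd and Ccdc117. Mt2, a metallothionein that binds zinc and answers metals and oxidants, was 0.65 at 1 h and 2.24 at 2 h (adjusted p = 0.0121), with 2.45 and 1.92 on its probes. In KO cells it was 1.62 at 2 h. The stress factor Atf3 was 0.55 and 1.68 over 4 probes (adjusted p = 0.0459), and 1.10 in KO cells at 2 h. Its probes ran from 0.07 to 2.40 at 2 h, and it passed in 0 of 6 fits with a 0 h array left out (adjusted p up to 0.0837). Myc was 0.30 and 1.12 over 3 probes (adjusted p = 0.0445), and 1.66 in KO cells. It passed in 1 of those 6 fits (adjusted p up to 0.0899).

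Of other genes called at 2 h, Nrip1, a nuclear receptor corepressor, was 0.47 at 1 h and 3.11 at 2 h (probes 5.25 and 0.97 at 2 h), Lyrm7 0.50 and 3.23, and Reep3 0.38 and 2.26. Among the lower genes Heatr1 was -0.73 and -4.30, and Dip2a 1.77 and -4.48. Cited2, a transcriptional coregulator, was 0.29 and -1.97, but 1 of its 4 probes gave -8.28 at 2 h and the others -0.41 to 0.43, and with 1 probe per gene it was 0.43. Dip2a thus stood on opposite sides of 0 h at the neighbouring times. Of the 29 calls, 8 had the other heated arrays (0.5 and 1 h) on the same side of all 0 h arrays. Here too the share over all genes was not counted.

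When the 3 heated arrays were averaged, 4 of 10625 genes passed (0.0376%), and 1202 had an unadjusted p under 0.05. With no centring the split was 1 higher to 0 lower, with quantile normalization 1 to 1, and as reported 1 to 3. Dnajb1 was 1.78 ± 0.26 higher (limma, adjusted p = 0.0302). Fcgr1 fell by 1.59 (adjusted p = 0.0383), Zdhhc16 by 1.47 (adjusted p = 0.0383) and Pknox2 by 2.00 (adjusted p = 0.0393) on the log2 scale. Pknox2, a homeodomain factor, read 0.39 and -0.39 at 0 h, -2.07 at 0.5 h, -1.79 at 1 h and -2.14 at 2 h. Zdhhc16, a palmitoyltransferase, had probes at -2.57 and -0.36. Hspa1a averaged 3.64 and Hspa1b 3.23 over the heated arrays, and neither passed (adjusted p = 0.123 and 0.188), as their arrays at 0.5, 1 and 2 h differed widely. Without the 1 h array or without the 2 h array 0 genes passed, and without the 0 h array of replicate 2 the count was 18. Genes with all heated arrays above all 0 h arrays numbered 583 of 9880 (5.90%), and 784 (7.94%) lay below.

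The median of immediate early genes was above 0 at 1 and 2 h. Of 36 tested over the 1 and 2 h mean 0 passed (Atf3 and Myc passed at 2 h alone, as above), and 14 of 36 (38.9%) had both arrays above all 0 h arrays, against 15.1% of all genes. The median was -0.08 at 0.5 h, 0.29 at 1 h and 0.45 at 2 h. Fos, which forms the AP-1 factor with Jun proteins, was 1.06 and 1.48 (mean 1.27, limma, adjusted p = 0.137), and 1.05 and 1.59 in KO cells. Egr1, a zinc finger factor induced by growth signals, was 1.62 and 0.79 (adjusted p = 0.264), beside 2.34 and 3.16 in KO cells, and the difference between genotypes was -1.54 (adjusted p = 0.372). The neuronal activity gene Arc differed by 0.97 (adjusted p = 0.115). In KO cells the list had medians of 0.47 at 1 h and 0.94 at 2 h.

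Among 23 antioxidant and metal response genes 0 passed over 1 and 2 h, 2 (8.70%) had both arrays above and 11 (47.8%) both below all 0 h arrays, against 15.1% and 15.8% of all genes, and the median was -0.41 at 1 h and -0.27 at 2 h. With no centring 5 (21.7%) were below, against 564 of all 10071 genes, and the medians were -0.18 and 0.0027. Mt2 differed by 1.44 (limma, adjusted p = 0.076) and its neighbour Mt1 by 0.72 (adjusted p = 0.284), and each can bind the other's probe. Of 23 genes of the ubiquitin and p97 pathway 0 passed. Zfand2a, a stress-induced regulator of the proteasome, was 0.75 and 1.18 (adjusted p = 0.183).

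**Figure D4:**
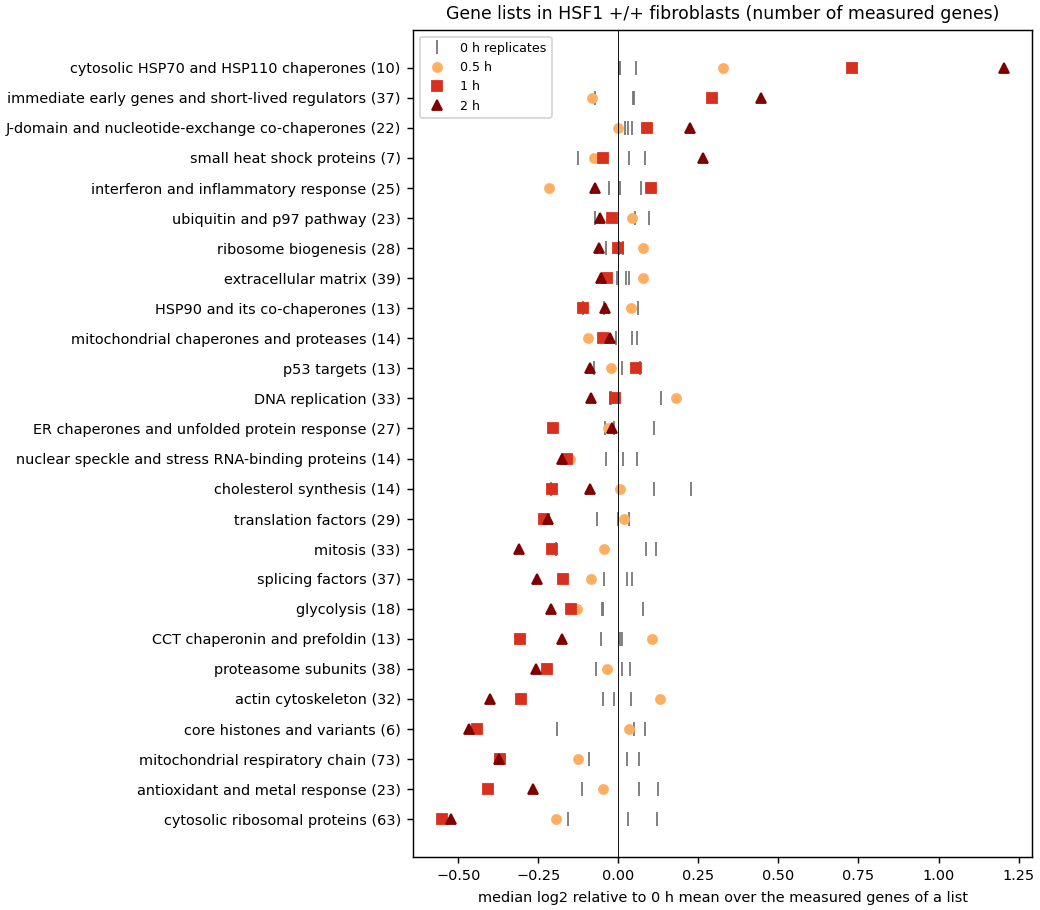
Median log2 ratio relative to the WT 0 h mean (x axis) of each functional gene list (rows, with the number of measured genes) at 0.5 h (orange circles), 1 h (red squares) and 2 h (dark triangles), with grey ticks for the 0 h arrays. The HSP70 and HSP110 list goes from 0.33 to 0.73 and 1.20, and the ribosomal protein list from -0.20 to -0.55 and -0.52.

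The plot of list medians shows which groups lay lower at 1 and 2 h. Cytosolic ribosomal protein genes, which encode the parts of the translating ribosome, had a median of -0.20 at 0.5 h, -0.55 at 1 h and -0.52 at 2 h. Of 63 measured 0 passed, and 62 gave a mean below zero. In 58 of 63 (92.1%) both arrays lay below all 0 h arrays, against 15.8% of all genes, and 45 had an unadjusted p under 0.05, against 6.47%. Rpl30 gave -1.02 (limma, adjusted p = 0.166), Rps15 -0.70 and Rpl11 -0.64.

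The narrower 1 and 2 h arrays moved with this result. With all arrays scaled to the same spread the ribosomal medians were -0.27, -0.27 and -0.23 at 0.5, 1 and 2 h, and 41 of 63 (65.1%) had both arrays below, against 13.6% of all genes. With quantile normalization the medians were -0.22, -0.21 and -0.18, and 35 of 63 (55.6%) had both below, against 13.3%. The list thus stayed lower at a smaller size, and 0.5, 1 and 2 h then had close medians. In KO cells the medians with centring only were 0.18, 0.19 and 0.34, and at equal spread 0.22, 0.17 and 0.17. The KO 0 h arrays themselves had centred medians of 0.25, -0.10 and -0.18, so KO at 0.5 and 1 h lay within their range. The 0 h WT arrays had centred list medians of 0.03, -0.16 and 0.12. The part of array width in the result was not tested beyond these settings.

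**Figure D5:**
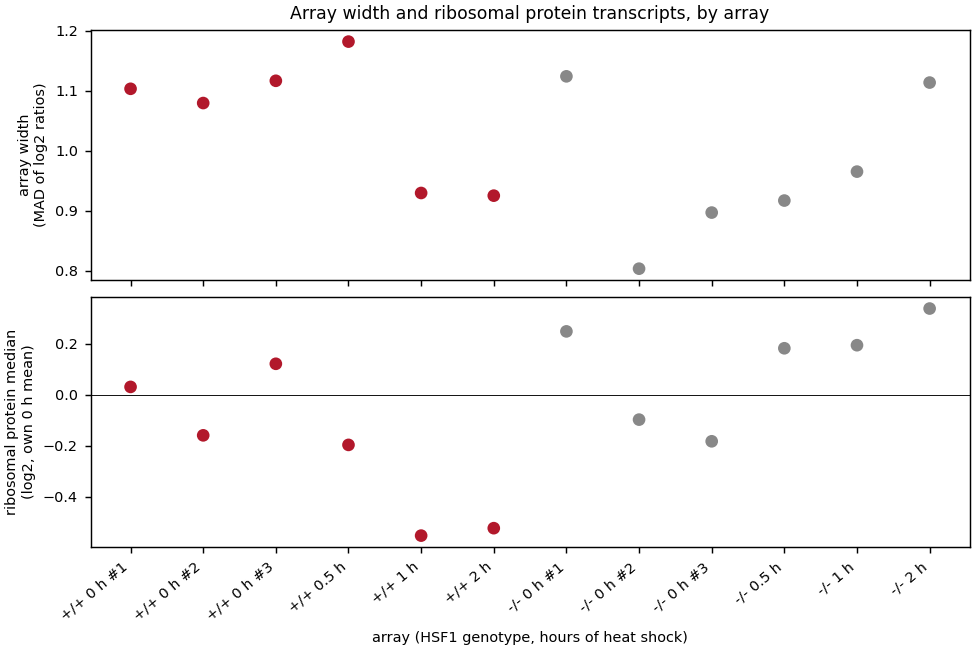
Spread of values within each array, as the median absolute deviation in log2 units, and the median log2 ratio of 63 ribosomal protein genes, for WT (red) and KO (grey) arrays at 0, 0.5, 1 and 2 h, each relative to the 0 h mean of its genotype. In WT the spread is 0.93 at 1 and 2 h against 1.08 to 1.18 before, and the ribosomal medians there are -0.55 and -0.52.

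The plot of array width and ribosomal medians shows that both stepped between 0.5 and 1 h in WT. On the later WT arrays, not plotted, the ribosomal median was 0.04 at 3 h, -0.57 at 4 h, -0.17 at 6 h and -0.21 at 8 h. The spreads of those arrays were 1.10, 0.81, 0.90 and 0.92. The lower median was thus absent on the wider 3 h array, and whether width or heat set it was not tested. Respiratory chain genes, which make up the mitochondrial electron transport complexes, had medians of -0.13, -0.37 and -0.37, with 0 of 73 passing. Both later arrays lay below all 0 h arrays in 50 of 73 (68.5%), and in 33 (45.2%) at equal array spread, with medians of -0.18 and -0.21 at 1 and 2 h. Ndufa4 gave -0.91 and Uqcrh -0.86. Actin cytoskeleton genes had medians of 0.13, -0.30 and -0.40, with 0 of 32 passing, and 19 of 32 (59.4%) both below, or 9 (28.1%) at equal spread, with medians of -0.10 and -0.16 at 1 and 2 h. Actb, cytoplasmic beta actin, was -0.82 over 13 probes (limma, adjusted p = 0.189) and Pfn1, an actin-binding profilin, -0.94 (adjusted p = 0.182). Of 38 proteasome genes 20 (52.6%) had both arrays below, or 13 (34.2%) at equal spread. The shares of all genes were 15.8% and 13.6%. With no centring 8 of the 38 proteasome genes (21.1%) were below and 3 above, beside 564 and 3358 of all 10071. The proteasome medians were then 0.0076 at 1 h and 0.0099 at 2 h, so they were not below 0. Of 29 translation factors 14 had both arrays below, or 3 at equal spread. Of 13 genes of prefoldin and the actin-folding CCT chaperonin 7 did, or 2 at equal spread. At equal spread these are 10.3% and 15.4%, beside 13.6% of all genes, and with no centring they are 2 and 0 genes, beside 564 of all 10071. The splicing protein gene Hnrnpa1 was -1.01 at 0.5 h, -1.23 at 1 h and -1.30 at 2 h (adjusted p = 0.118), and the variant histone gene H2ax averaged -0.97 over 1 and 2 h (adjusted p = 0.137). The cytokine gene Il6 lay on the other side, at -0.14, 0.89 and 1.72 (adjusted p = 0.265). With no centring of arrays the median of all genes moved to 0.26 at 1 h and 0.26 at 2 h, and the ribosomal medians there were -0.32 and -0.26.

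The difference between WT and KO in the 1 and 2 h response passed in 20 of 10379 genes (0.193%), 14 higher and 6 lower in WT, and without centring the split was 46 to 4. Genotype cannot be told apart from other differences between the cell lines. Hspa1a in KO cells read 0.24 at 0.5 h, 0.66 at 1 h and 0.16 at 2 h, relative to the KO 0 h arrays, and the difference was 4.77 ± 0.48 (limma, adjusted p = 0.00139). Hspa1b read -0.34, -0.46 and -0.59, with a difference of 5.03 ± 0.52 (adjusted p = 0.00139). Within KO cells neither copy passed over 1 and 2 h (0.41, adjusted p = 0.747, and -0.53, adjusted p = 0.673).

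Dnajb1 in KO cells was 0.38, 0.28 and -0.19, and the difference was 2.06 ± 0.36 (limma, adjusted p = 0.0326). That call was lost when any 1 of 8 of the 10 arrays was left out (adjusted p = 0.0501 to 0.0895). Hsph1 was -0.14, 0.28 and -0.08 in KO cells, and its difference of 1.52 missed (adjusted p = 0.0596), as did those of Chrd (2.24, 0.0596), Il1r1 (2.77, 0.0596) and Ccdc117 (1.76, 0.0905). Fcgr1 was -0.28, 0.15 and 0.23 in KO cells, with a difference of -2.11 ± 0.34 (adjusted p = 0.0217). That call was lost in 10 of 20 alternatives, among them equal spread (-1.82, adjusted p = 0.0796) and 1 probe per gene (-0.61, adjusted p = 0.669). In 13 of the 20 genes the WT arrays at 1 and 2 h stayed between -0.58 and 0.67, and a KO array at 1 or 2 h was between 2.56 and 7.38 away from 0. The difference there thus came from KO arrays, and in some genes from a single one. Krtap6-2 was -6.39 at 1 h and -0.33 at 2 h in KO cells, and Derl3 7.38 and 0.27. B3galt5, in contrast, was low in both (-2.555 and -2.04). Its difference between genotypes of 2.73 passed under all 19 alternatives, as did that of Hspa1a.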

How the data were processed

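The deposited table holds the authors' log ratios of Cy5 sample over Cy3 pool, 1 value per probe and array, taken here as log2. Background correction, spot filters and within-array normalization are not given in the sources used here, nor is the base of the logarithm. Values reached 10.2 in size, whereas log10 ratios of 16-bit signals cannot pass 4.82. Natural logarithms remain possible, and folds would then be too small. No spot intensities were examined, so signal over background is unknown, and the number of arrays limits the precision.

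Each array was centred on its median. Of 42624 probes, 21701 listed 1 gene in the platform table, 1124 several and 19799 none. Those with 1 gene were kept, 20881 in all, if every one of 6 groups (WT and KO at 0 h, 0.5 to 2 h and later) had 2 or more values. A gene's value is the mean of its probes, each relative to its own mean. Linear models (limma 3.58.1, R 4.3.3; lmFit, eBayes) were fitted to all 20 arrays, with two-sided tests, Benjamini-Hochberg adjustment across every gene tested in a comparison, and a threshold of 0.05. Single times and the 1 and 2 h mean came from a model with a term for each early time (10 residual degrees of freedom), in which WT and KO 0 h arrays and the later arrays set the spread, so a lone heated array is assumed to vary like them. The average over the 3 heated times came from a model of 6 groups (14 residual degrees of freedom). Comparisons of heated times share the 0 h arrays. Folds are 2 to the power of the log2 difference.

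The genes and gene lists described were chosen with earlier results of these data known. The rule named genes past the threshold over the 3 heated times. For 0.5 h, 1 h, 2 h and the 1 and 2 h mean it named the 10 largest rises and falls past the threshold, among genes measured on all 6 arrays whose heated arrays lay on one side of the 0 h arrays. In each list it also named the 4 or fewer with the lowest p. Other genes (Il1r1 among them, which completes a count) were chosen after their values were seen. Alternatives changed the centring and scaling, the probe rule, the samples in the model and single arrays, and 1 was added later, genes with at least 2 probes. Promoters were taken from RefSeq (GRCm38.p6) by gene symbol with Python 3.11.15 and pandas 2.3.3, and figures drawn with matplotlib 3.10.9.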

Additional observations from a re-analysis of the deposited data

Results flagged for a closer look

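The 1 and 2 h response differed between WT and KO cells in 20 genes by a test of that difference (limma, adjusted p under 0.05). The 7 of them that the rule for naming genes had picked are given here, in log2 units, WT minus KO. The value was 4.77 for Hspa1a, 5.03 for Hspa1b and 2.06 for Dnajb1. It was 3.32 for Slc22a12, which rests on the WT 2 h and the KO 1 h array (1.06 without the first, adjusted p = 0.685, and 2.00 without the second, adjusted p = 0.224), and -3.36 for Cfap126, which rests on the WT 2 h array. It was 2.81 for 1700013G24Rik, which rests on the WT 1 h array, and -2.11 for Fcgr1, whose probes disagreed.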

How the results depend on the processing

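Heated times had 1 array each, so the counts moved with most settings. In this order, counts are for the 3-time window, 0.5 h, 1 h, 2 h, 1 and 2 h, 1 and 2 h minus 0.5 h, and WT minus KO, with settings named where a count moved by over 1.5 times. No centring gave 1 (window), 49 (2 h), 42 (1 and 2 h) and 50 (WT minus KO). Quantile normalization gave 2 (window), 56 (0.5 h), 25 (1 and 2 h) and 57 (minus 0.5 h). Scaling to equal spread gave 0 (window), 36 (0.5 h), 8 (1 h), 35 (minus 0.5 h) and 11 (WT minus KO). With 1 probe per gene the counts were 2 (window) and 44 (2 h), with complete probes 2 (window) and 103 (0.5 h), and with no minimum of values 8 (window). A model of WT arrays alone gave 0 (window), 43, 0, 4, 2 and 42 for the 5 other WT comparisons, and the 6 arrays alone gave 0 for the window. With 1 term per time point the counts were 35 (0.5 h), 2 (1 h), 8 (2 h), 3 (1 and 2 h), 36 (minus 0.5 h) and 9 (WT minus KO), and with joined early and late groups 4 (WT minus KO). Genes with at least 2 probes, added after seeing the data, gave 56 (0.5 h), 3 (1 h), 12 (2 h), 67 (minus 0.5 h) and 2 (WT minus KO). This set held 5443 of the 10625 genes, so its counts have a smaller base. Leaving out single arrays gave 0 to 18, 133 to 175, 7 to 15, 22 to 33, 12 to 35, 98 to 197 and 12 to 44.

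Hspa1a passed over 1 and 2 h under all 18 alternatives (adjusted p at most 0.0151), the 1 of the 10 genes to do so, and all 10 kept their sign. With 1 probe per gene the sign turned for Amn1 (0.65), Plxnb1 (0.30, also with complete probes) and Tef (-0.11) at 1 h, for Cited2 at 2 h (0.43, and 0.011 with complete probes), and for Cenpa (0.15), Gmnn (0.023) and Srsf5 (0.070) over 1 and 2 h. Without single arrays Srsf5 ran from -1.60 (no WT 1 h) to 0.033 (no WT 2 h), and Nkg7 for WT minus KO from -0.52 (no KO 1 h) to 5.49 (no KO 2 h). Fcgr1 over 1 and 2 h was -0.30 with 1 probe per gene (adjusted p = 0.714). The cause of these changes was not tested. No paired analysis was possible because the heated arrays carry no replicate number. WT and KO responses were set against each other at the same times.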
